A study of Mus musculus with 10 samples.

Results

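The galectins measured here were Lgals1, Lgals2, Lgals3, Lgals4, Lgals7, Lgals8 and Lgals9, together with Lgals3bp, which encodes a secreted glycoprotein that galectin-3 binds. These 8 genes were taken by name, of 19505 genes on the array that had a symbol, and each had 1 probe set. They were read in mouse intestinal organoids, which are small epithelia grown in culture from gut tissue. 5 arrays came from organoids labelled KO for IκBα, the inhibitor that holds NF-kB out of the nucleus and is encoded by Nfkbia, and 5 from organoids labelled WT. The labels give no allele, no Cre line and no treatment for either genotype, and do not say whether the replicates came from separate mice or cultures, so a p-value here covers sample-to-sample spread that may be only technical. All samples carry the mark P6, which the labels do not explain. The series asks whether loss of IκBα gives intestinal stem cells fetal traits, and the comparison made here was KO against WT.

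Galectins are lectins that bind β-galactosides, the galactose-containing ends of the sugar chains on glycoproteins and glycolipids. They are made in the cytosol, leave cells without a signal peptide and cross-link glycoproteins at the surface and in the matrix, and inside cells several of them bind sugars exposed on broken vesicles. Galectin-1, galectin-2 and galectin-7 have a single sugar-binding domain and pair up, galectin-3 joins such a domain to a flexible tail, and galectin-4, galectin-8 and galectin-9 hold a pair of domains in a single chain. In the gut, galectin-4 is known for clustering glycolipid rafts and brush border enzymes on their way to the apical membrane, and galectin-2 and galectin-4 are typical products of intestinal epithelium, whereas galectin-1 is best known from stromal cells and galectin-7 from stratified epithelium.

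Promoters are shown for 3 galectins that changed between the genotypes, and for Lgals8 because it alone held an NF-kB match. The RefSeq promoter table (GRCm38.p6) held 7 of the 8 genes, Lgals1 being the other. Each sequence is the 250 bases before the annotated start, written in the direction of the gene, with motif matches in capitals. The windows are chr15:78855530-78855779 on the minus strand for Lgals2, chr14:47373610-47373859 on the plus strand for Lgals3, chr7:28833544-28833793 on the plus strand for Lgals4 and chr13:12461739-12461988 on the minus strand for Lgals8.
Lgals2: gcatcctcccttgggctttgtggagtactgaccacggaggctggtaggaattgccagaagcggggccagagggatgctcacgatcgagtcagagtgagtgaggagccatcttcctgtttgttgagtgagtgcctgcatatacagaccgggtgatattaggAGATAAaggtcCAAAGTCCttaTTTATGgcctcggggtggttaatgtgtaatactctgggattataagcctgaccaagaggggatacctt
Lgals3: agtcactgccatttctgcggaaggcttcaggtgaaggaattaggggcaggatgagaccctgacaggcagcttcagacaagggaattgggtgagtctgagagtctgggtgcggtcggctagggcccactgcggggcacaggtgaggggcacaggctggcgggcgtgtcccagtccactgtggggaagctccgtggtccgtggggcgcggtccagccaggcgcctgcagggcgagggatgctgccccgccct
Lgals4: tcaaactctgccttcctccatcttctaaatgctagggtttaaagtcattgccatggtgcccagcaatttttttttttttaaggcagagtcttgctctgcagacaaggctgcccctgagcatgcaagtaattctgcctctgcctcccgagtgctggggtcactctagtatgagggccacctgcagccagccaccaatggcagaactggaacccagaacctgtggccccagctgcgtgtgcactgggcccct
Lgals8: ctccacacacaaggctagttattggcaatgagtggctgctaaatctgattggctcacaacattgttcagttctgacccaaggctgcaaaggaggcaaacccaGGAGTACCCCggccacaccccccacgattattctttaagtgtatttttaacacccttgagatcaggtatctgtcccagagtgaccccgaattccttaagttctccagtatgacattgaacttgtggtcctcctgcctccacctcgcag

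6 motifs were searched on both strands of these windows and of all 32851 promoter windows in the table. They were chosen after the promoters had been read. The Lgals2 window held 3 of them side by side: AGATAA, a core bound by GATA factors, from 90 to 85 bases before the start, CAAAGTCC, a part of the HNF4 element, from 79 to 72, and TTTATG, a core bound by CDX factors, from 68 to 63. Over all promoters AGATAA was present in 9.99%, CAAAGTCC in 1.2% and TTTATG in 10.8%. The NF-kB consensus was found in 1 of the 7 galectin windows, that of Lgals8, and in 3.90% of all promoters. The AP-1 letters TGANTCA (6.75% of all promoters) and the TEAD letters GGAATG (12.6%) were in 0 of the 7. No motif overlapped another, and a match of letters does not show that a factor binds there.

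Levels below are log2 values as deposited, a change is KO minus WT on that scale, and a gene is said to have risen or fallen when limma's adjusted p, taken over all 19572 probe sets with a symbol, was under 0.05. Nfkbia itself averaged 5.06 ± 0.31 in the KO arrays and 9.19 ± 0.38 in the WT arrays (SD, n = 5 each). Epithelial markers were Epcam, Cdh1, Krt8, Krt18, Krt19 and the other 6 of their list. Their mean level was 10.69 to 11.02 in KO and 10.79 to 10.92 in WT, an average over changes in both directions. Of the 11, 4 rose, 3 fell and 4 did not pass, where 15.0% of all probe sets were higher and 11.7% lower. Krt18 rose by 1.43, Cdh1 by 0.45 and Krt8 by 0.43. Cdx2, the intestinal identity factor, changed by -2.16 and Vil1, the brush border protein villin, by -1.03. The median negative control probe lay between 4.30 and 5.10 in the 10 arrays, and their 95th percentile averaged 7.44. Where the mean of a group was below 7.44, as for Nfkbia in KO, the size printed is the measured one and may understate the change. The 8 bacterial spike-in probe sets were lower in KO by a median of -0.52, with changes from -0.85 to -0.10. The mean level of 5 Y-linked genes was 3.58 to 3.69 in KO and 5.90 to 6.22 in WT. Lower Y-linked signal thus went with the KO label in every array. Its part in any change given here was not tested and cannot be told apart from that of genotype.

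The galectins divided by gene. Lgals1 and Lgals3 rose in KO organoids by more than 4-fold, Lgals2 and Lgals4 fell, and Lgals7, Lgals8, Lgals9 and Lgals3bp did not pass. Thus 2 of 8 rose, where 15.0% of all probe sets tested were called higher, and 2 of 8 fell, where 11.7% were called lower. The 5 KO and 5 WT values did not overlap for 3 of the 8 genes, against 21.4% of all probe sets. The median change of the 8 genes was 0.13, and that of all genes was -0.01. The changes of the family lay on both sides of 0. The plot of levels by array shows the spread behind each of these statements.

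**Figure D1:**
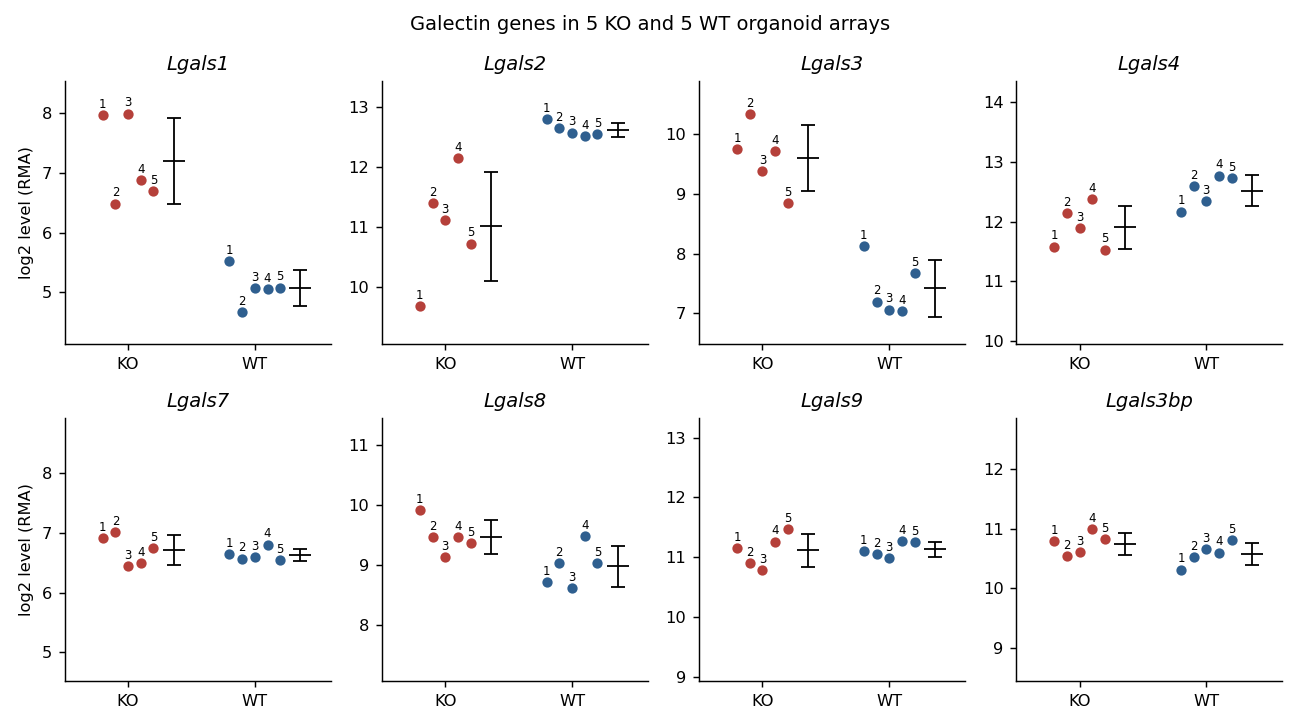
Log2 level of 8 galectin genes (vertical axis, 1 panel a gene, all with the same number of log2 units) in 5 KO and 5 WT arrays; points are arrays marked with their replicate number, and the bar beside them is the mean ± SD. Lgals1 and Lgals3 lie higher and Lgals2 lower in every KO array than in every WT array, whereas the groups overlap for the other 5 genes.

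Galectin-1 was higher in all KO arrays. Lgals1 levels were 7.96, 6.49, 7.99, 6.88 and 6.69 in KO replicates 1 to 5 and 5.52, 4.68, 5.07, 5.05 and 5.08 in WT replicates 1 to 5. KO replicates 1 and 3 stood about a log2 unit above the other KO arrays, and the groups did not overlap. KO averaged 7.20 ± 0.72 and WT 5.08 ± 0.30 (SD, n = 5 each). Lgals1 thus rose by 2.12 ± 0.30 (standard error), which is 4.35-fold (limma, adjusted p = 0.00024). The WT values minus the negative control median of their own array ran from -0.05 to 0.75, so the measured size is a lower bound. For the KO values this difference was 1.86 to 3.35, and in KO replicates 1 and 3 they also passed the 95th percentile of the negative controls.

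Since galectin-1 is typical of stromal cells, fibroblast markers were read beside it. All 12 measured markers, among them Col1a1, Col1a2, Col3a1, Dcn, Pdgfrb and Vim, had means in both groups below 7.44. The means of Lgals1 were below that level in both groups too. Their mean level was 5.02 to 5.35 in KO and 5.22 to 5.49 in WT. Of the 12, 0 rose and 1 fell (limma, with 0 higher and 3 lower at an unadjusted p under 0.05). Over all probe sets, 15.0% were higher and 11.7% lower. The 9 measured endothelial markers were below 7.44 as well, and 1 of them, the receptor gene Flt1, rose, by 0.84. The part of stromal cells in the Lgals1 result was not tested.

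Galectin-3, the galectin with a tail that lets it form larger lattices, also rose in KO. Lgals3 levels were 9.74, 10.34, 9.37, 9.71 and 8.84 in KO replicates 1 to 5 and 8.13, 7.20, 7.06, 7.03 and 7.67 in WT replicates 1 to 5. KO replicate 5 was the lowest KO array and WT replicate 1 the highest WT array, and a gap remained between them. KO averaged 9.60 ± 0.55 and WT 7.42 ± 0.47 (SD, n = 5 each). Lgals3 rose by 2.18 ± 0.28 (standard error), 4.54-fold (limma, adjusted p = 0.00011). In WT, 2 of 5 arrays were above the 95th percentile of their negative controls, and in KO all 5 were. The WT mean was just under 7.44.

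Macrophages carry much galectin-3, so their markers were read in the same arrays. Their mean level over 14 genes was 5.72 to 6.0 in KO and 5.27 to 5.50 in WT. Of the 14, 5 rose, 1 fell and 8 did not pass, where 15.0% of all probe sets were higher and 11.7% lower. Ptprc, Adgre1, C1qa, C1qb, C1qc and Tyrobp were below 7.44 in both groups and did not pass. Cd14, the lipopolysaccharide co-receptor, rose by 4.70 from a WT mean below 7.44, the receptor gene Csf1r by 1.53 from a level near the negative controls, and the lysozyme gene Lyz2 changed by -4.18 to a KO mean below 7.44. Itgam, Mrc1 and Aif1 rose by 1.56, 1.46 and 1.34, with means below 7.44 in both groups. Itgam was 8.37 in KO replicate 1, above the 7.77 of that array's negative control 95th percentile, and 6.14 to 6.64 in the other KO arrays. The part of these markers in the Lgals3 result was not tested.

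Galectin-2 fell, with far more spread among KO arrays than among WT arrays. Lgals2 levels were 9.69, 11.41, 11.12, 12.15 and 10.72 in KO replicates 1 to 5 and 12.80, 12.65, 12.58, 12.52 and 12.56 in WT replicates 1 to 5. WT arrays lay within 0.28 of each other, KO arrays spanned 2.47, and KO replicate 4 came close to WT while KO replicate 1 was lowest. KO averaged 11.02 ± 0.91 and WT 12.62 ± 0.11 (SD, n = 5 each). The change of -1.60 ± 0.35 (standard error) makes Lgals2 3.04-fold lower (limma, adjusted p = 0.00498). In such bulk samples, fewer cells of a type and less RNA per cell cannot be told apart.

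Galectin-4 fell by less, and its groups overlapped. Lgals4 levels were 11.58, 12.13, 11.89, 12.38 and 11.53 in KO replicates 1 to 5 and 12.17, 12.59, 12.34, 12.77 and 12.73 in WT replicates 1 to 5. Only KO replicate 4 reached the WT range, where it stood above WT replicates 1 and 3. KO averaged 11.90 ± 0.36 and WT 12.52 ± 0.26 (SD, n = 5 each). The change of -0.61 ± 0.18 (standard error) makes Lgals4 1.53-fold lower (limma, adjusted p = 0.0278). The call was lost when any of KO replicates 1, 3 and 5 or WT replicates 2, 4 and 5 was left out, with an adjusted p of 0.0501 to 0.0706 (limma). The change was also within the range of the spike-in changes, -0.85 to -0.10. The mouse paralog Lgals6, close to Lgals4 in sequence, was not analysed here, and its signal and that of Lgals4 cannot be told apart.

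**Figure D2:**
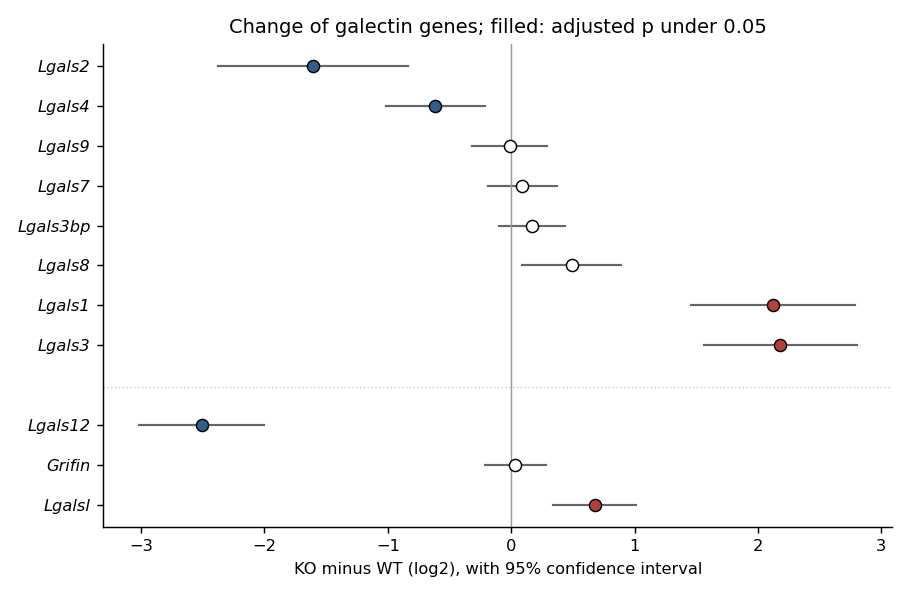
Change of each galectin gene as KO minus WT (horizontal axis, log2) with its 95% confidence interval from limma; the 8 genes are above the dotted line, 3 further galectin-related genes below it, and filled points have an adjusted p under 0.05. Lgals1 and Lgals3 stand near 2, Lgals2 and Lgals12 below -1.5, and the intervals of Lgals7, Lgals9, Lgals3bp and Grifin span 0.

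Both galectins that fell are products of absorptive epithelium, so the markers of enterocytes, the absorptive cells, were set beside them. The mean level of 17 enterocyte markers was 5.77 to 6.16 in KO and 9.55 to 11.56 in WT. Of the 17, 15 fell, 0 rose and 2 did not pass (limma, with 15 lower and 0 higher at an unadjusted p under 0.05). Over all probe sets, 11.7% were lower and 15.0% higher. Among the WT arrays, replicate 1 had the lowest enterocyte marker level and replicate 4 the highest. Lgals4 was lowest and highest in the same arrays, at 12.17 and 12.77, whereas Lgals2 ran the other way, at 12.80 and 12.52. Lgals3 was highest in WT replicate 1 as well, at 8.13, and lowest in WT replicate 4, at 7.03.

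Among the KO arrays the mean of the enterocyte markers ran from 5.77 to 6.16, while Lgals2 spanned 2.47. The KO means of Sis, Fabp1, Fabp2, Treh and Cyp3a11 were 4.18 to 4.90, at or near the negative control medians. The marker mean can thus hide differences among KO arrays. Of single markers, Krt20 spanned 2.17 in KO, Dpp4 1.38 and Vil1 0.73. Krt20 was highest in KO replicate 4 and lowest in KO replicate 1, as was Lgals2. Replicate 4 was highest for both Lgals2 and Lgals4, followed by replicates 2 and 3, with replicates 1 and 5 lowest for both. These orders rest on 5 arrays a group and were noticed after the values were seen. The median enterocyte marker changed by -5.74, in a list that ran from -7.22 to -0.12, Lgals2 by -1.60 and Lgals4 by -0.61. Sizes of markers near the negative controls in KO are bounds. Vil1 and Krt20, with KO means above 7.44, changed by -1.03 and -1.07, and Krt20 did not pass. Both galectins were above the 95th percentile of the negative controls in all 5 KO arrays. The part of enterocyte content in either fall was not tested.

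**Figure D3:**
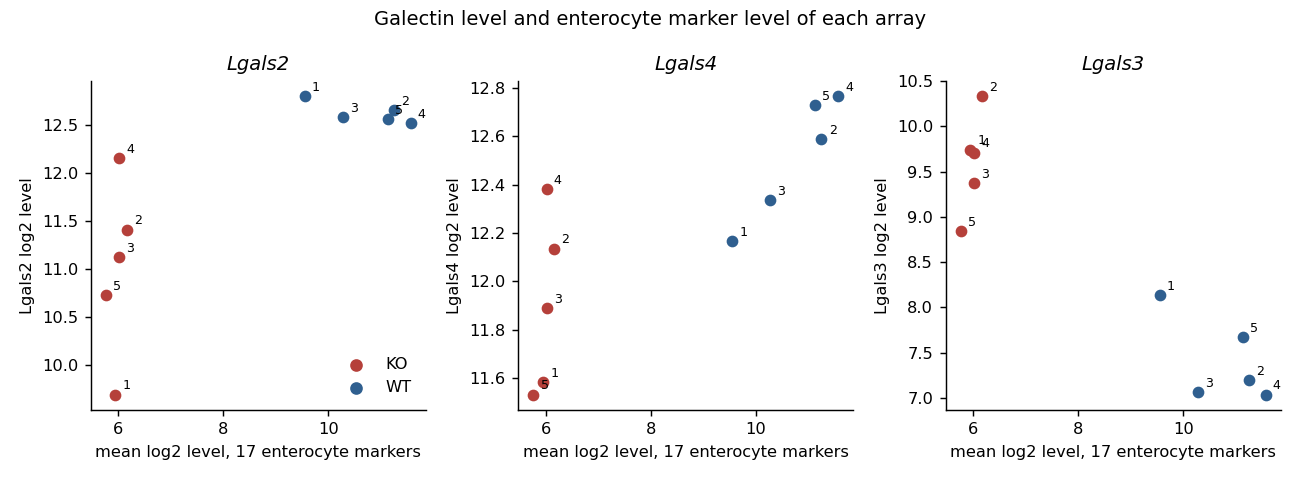
Log2 level of Lgals2, Lgals4 and Lgals3 (vertical axes, each with its own range) against the mean log2 level of 17 enterocyte markers (horizontal axis) in 5 KO and 5 WT arrays, marked with replicate numbers. KO arrays lie between 5.77 and 6.16 on the horizontal axis and spread widely in Lgals2, and WT arrays lie between 9.55 and 11.56.

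Galectin-8, which senses sugars on ruptured vesicles and calls in autophagy, was higher on average in KO but did not pass. Lgals8 levels were 9.91, 9.46, 9.13, 9.47 and 9.37 in KO replicates 1 to 5 and 8.72, 9.03, 8.61, 9.48 and 9.03 in WT replicates 1 to 5. WT replicate 4 stood above all KO arrays but replicate 1, and the other 4 WT arrays lay below all KO arrays. The change was 0.49 with a 95% confidence interval of 0.09 to 0.89 (limma, adjusted p = 0.0696, unadjusted p = 0.0205). Without WT replicate 4 the change was 0.62 and passed (limma, adjusted p = 0.0175), and without KO replicate 3 it was 0.58 and passed too (limma, adjusted p = 0.0441).

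The remaining members moved little. Galectin-9, a galectin with a pair of domains that is known as an immune ligand, had Lgals9 levels of 10.79 to 11.47 in KO and 10.99 to 11.27 in WT, and its change of -0.01 had an interval of -0.31 to 0.29 (limma, adjusted p = 0.958). Lgals3bp, the galectin-3 binding glycoprotein, ranged from 10.54 to 10.99 in KO and from 10.32 to 10.81 in WT, a change of 0.17 with an interval of -0.10 to 0.44 (limma, adjusted p = 0.368). These intervals exclude a 2-fold change in either direction. While the gene of galectin-3 rose, that of its partner thus did not pass.

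Galectin-7 is a marker of stratified epithelium. Lgals7 levels were 6.44 to 7.01 in KO and 6.54 to 6.80 in WT, a change of 0.09 with an interval of -0.19 to 0.37 (limma, adjusted p = 0.668). All 10 values were below the 95th percentile of their negative controls. The basal stratified markers Krt5, Krt14 and Trp63 did not pass either, with changes of 0.06, -0.002 and -0.03. Their means were below 7.44 in both groups too. Of the 16 stratified markers, 6 rose, 1 fell and 9 did not pass, where 15.0% of all probe sets were higher and 11.7% lower. Sprr1a rose by 3.01, Ly6d by 2.83, Krt4 by 2.66 and Ivl by 2.64. The WT means of these 4 genes were below 7.44.

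Of the galectin-related genes outside the 8, Lgals12, Lgalsl and Grifin were measured. Lgals12, a galectin known from fat cells, with a KO mean below 7.44, had levels of 6.43 to 7.25 in KO and 8.86 to 9.84 in WT, with no overlap. It fell by 2.51 ± 0.23 (standard error), which is 5.69-fold (limma, adjusted p = 7.06e-06). Lgalsl, a galectin-like protein, rose by 0.68 ± 0.15 (standard error; limma, adjusted p = 0.00618), and its KO replicate 1, at 8.81, lay within the WT range of 8.61 to 8.91. Grifin, the galectin-related protein of the lens, changed by 0.03 (limma, adjusted p = 0.860).

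Galectin genes that lie near each other moved differently. Lgals2 and Lgals1 lie on chromosome 15 with 3 protein-coding genes between them, and fell and rose, respectively. Of those 3, Sh3bp1 rose by 0.70 and Gga1 (0.27) and Pdxp (0.23) did not pass. Lgals4 and Lgals7 are next to each other on chromosome 7, and Lgals4 fell while Lgals7 did not pass. Whether such pairs differ from other neighbours was not tested.

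The genes whose levels ran closest to each changed galectin were taken by the root mean square difference of centred log2 levels over the 10 arrays, as a description. Closest to Lgals1 were Il1f6, a cytokine of the interleukin-1 family (0.33), Eva1c (0.37) and Slco5a1 (0.39). Closest to Lgals3 were Hs3st1, a heparan sulfate sulfotransferase (0.23), the neutrophil chemokine Cxcl1 (0.31) and the transcription factor Foxq1 (0.31). Closest to Lgals2 were Gmds, which starts the synthesis of GDP-fucose (0.34), Nostrin (0.40) and Slc16a6 (0.41). Closest to Lgals4 were Tspan15 (0.15), which itself changed by -0.42 and did not pass, the sterol pathway enzyme Mvd (0.16) and the intestinal cadherin Cdh17 (0.16). Cdh17 fell by 0.68, with 11.55 in KO against 12.23 in WT on average. The WT means of Eva1c, Cxcl1 and Foxq1 and the KO mean of Slc16a6 were below 7.44. Those of Il1f6, Slco5a1 and Lgals1 were below it in both groups.

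Enzymes that build the sugar chains galectins bind changed in both directions. Of 24 measured genes 8 rose, 9 fell and 7 did not pass, with a median change of -0.004. This count and those of the following lists stand beside the 15.0% higher and 11.7% lower over all probe sets. Gcnt1, which starts core 2 branches on O-glycans, rose by 2.29, Man2a2, a mannosidase of N-glycan maturation, by 1.62, Gcnt2, which branches polylactosamine chains, by 1.59 and the galactosyltransferase B4galt2 by 0.90. Among those that fell, the change was -2.58 for the galactosyltransferase B4galt4, -2.30 for B3gnt7, which extends polylactosamine, -1.64 for the N-glycan branching enzyme Mgat4a and -1.62 for the UDP-GlcNAc transporter Slc35a3. The means of Gcnt1 and Man2a2 in WT, of B3gnt7 in KO and of B4galt2 and B4galt4 in both groups were below 7.44. B4galt4 in KO, at 4.65, was at the level of the negative control medians. Gne, the first enzyme of sialic acid synthesis, was counted here and not among the sialic acid genes below, and changed by -0.88. Without KO replicate 4, and likewise without WT replicate 2, 5 genes of this list rose in place of 8. Mgat5, whose branched N-glycans are preferred galectin-3 ligands, fell by 1.33, to 8.71 ± 0.19 in KO from 10.04 ± 0.07 in WT (SD, n = 5 each; limma, adjusted p = 2.38e-06). Gne and Mgat5 were named after their values were seen.

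Sialic acid caps galactose, and capping in α2,6 linkage blocks galectin-1 binding. Of 14 measured genes of sialic acid activation, transport, transfer and removal, 4 rose, 5 fell and 5 did not pass. St6gal1, which adds the α2,6 cap to N-glycans, rose by 4.27, from 5.28 ± 0.10 in WT to 9.56 ± 0.30 in KO (SD, n = 5 each; limma, adjusted p = 1.47e-09). The α2,3 sialyltransferases St3gal1 and St3gal2 rose by 2.0 and 1.22 and the ganglioside enzyme St3gal5 by 2.74. Among those that fell, the change was -2.90 for St6galnac2, -1.82 for St3gal6, -1.73 for the sialidase Neu3 and -0.81 for Cmas, which activates sialic acid. The WT means of the 4 genes named as higher and the KO means of St6galnac2 and Neu3 were below 7.44.

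Glycoproteins known to bind galectins were higher more often than lower in KO. Of 29 measured partners 16 rose, 2 fell and 11 did not pass, with a median change of 0.66 against -0.01 over all genes, where 15.0% of all probe sets were higher and 11.7% lower. The membrane mucin Muc1 rose by 6.94, fibronectin (Fn1) by 6.24, the hyaluronan receptor Cd44 by 3.21 and the laminin chain Lama5 by 2.35. The glucose transporter Slc2a2, which N-glycan lectin lattices hold at the surface of β cells, changed by -5.42 and the transferrin receptor Tfrc by -1.18. The WT means of Muc1, Fn1 and Lama5 and the KO mean of Slc2a2 were below 7.44, with Fn1 in WT, at 5.14, near the negative control medians. The partners Ptprc and Itgam also stand on the macrophage list, and Cdh1 on the epithelial list.

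Brush border proteins, the cargo that galectin-4 helps to sort to the apical side, were nearly all lower. Of 14 measured genes 12 fell, 0 rose and 2 did not pass (limma, with 12 lower and 0 higher at an unadjusted p under 0.05), and the median change was -4.56. The changes of Sis, Alpi, Slc5a1 and Anpep, which encode sucrase-isomaltase, alkaline phosphatase, the glucose cotransporter and aminopeptidase N, were measured as -7.22, -6.68, -6.29 and -6.14. Their KO means, from 4.77 for Sis to 5.61 for Alpi, were at or near the negative control medians, so these sizes are bounds. 7 of the 14 are enterocyte markers as well, so these counts are not separate from those above. The genes that did not pass, named after their values were seen, were Dpp4 (-0.12) and Tmprss15 (-0.17). Tmprss15, at 4.29 in KO and 4.46 in WT, was near the negative control medians in both groups. Dpp4, at 7.43 in KO and 7.55 in WT, was near their 95th percentile of 7.44.

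Genes of the response to damaged vesicles, in which galectin-3, galectin-8 and galectin-9 take part, changed by small amounts. Of 23 measured genes 8 rose, 0 fell and 15 did not pass (limma, with 10 higher and 2 lower at an unadjusted p under 0.05), with a median change of 0.05. Tfe3, a regulator of lysosome genes, rose by 0.87, the autophagy receptor Sqstm1 by 0.78, Trim16, which binds galectin-3 at damaged membranes, by 0.75 and the ESCRT subunit Tsg101 by 0.65. These changes are of the size of the spike-in differences, which had the other sign. Without WT replicate 1, WT replicate 3 or KO replicate 3, 1 gene of this list fell.

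**Figure D4:**
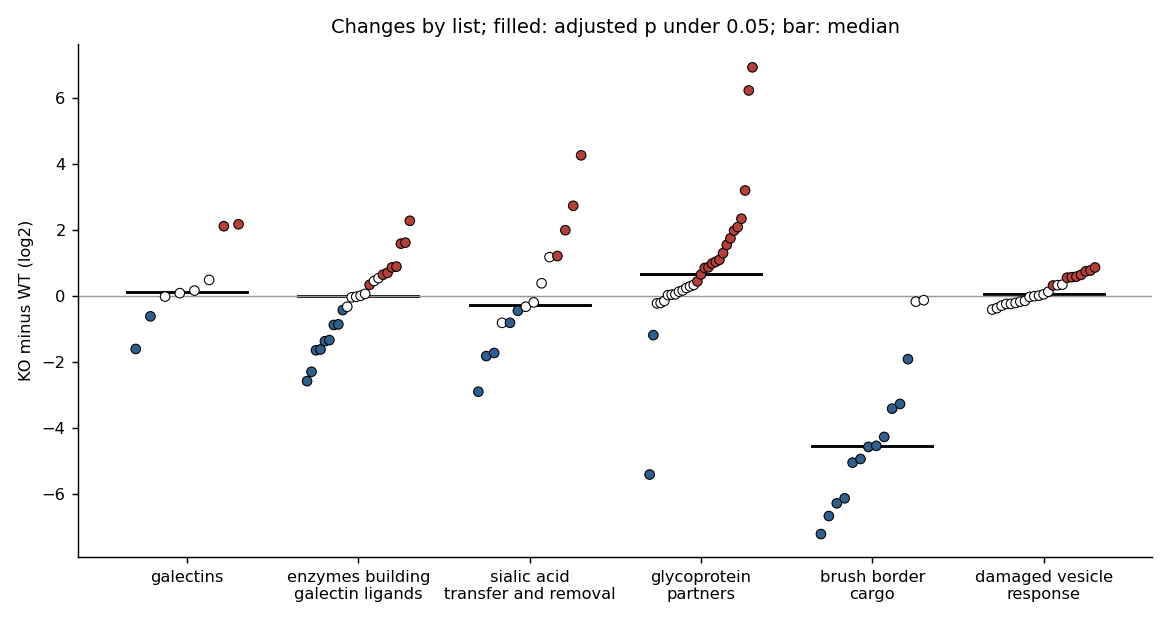
Change of each measured gene (vertical axis, KO minus WT, log2) in the galectins and 5 lists of related genes; filled points have an adjusted p under 0.05 and bars are medians. The galectins, the enzymes that build their ligands and the sialic acid genes spread to both sides, partners lie mostly above 0, brush border cargo lies below 0 with a median of -4.56, and vesicle damage genes stay between -0.41 and 0.87.

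**Figure D5:**
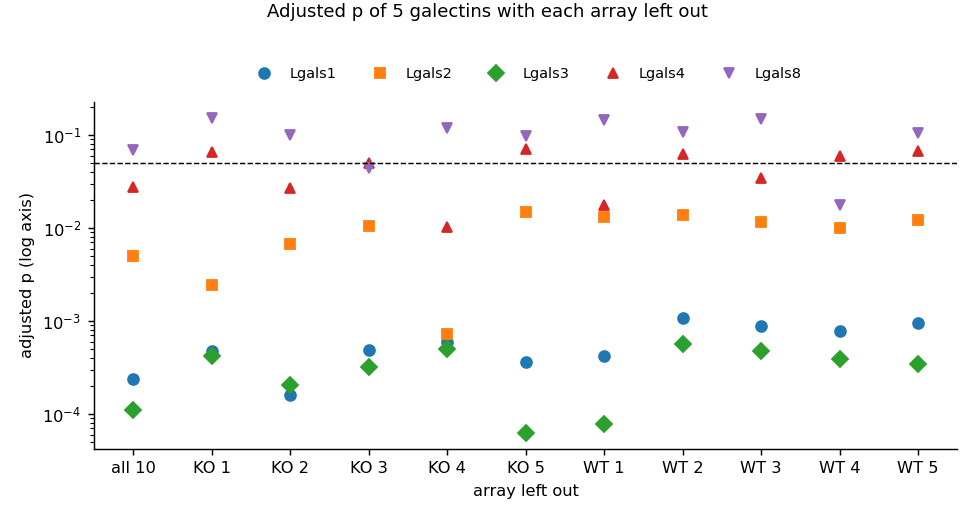
Adjusted p from limma (vertical axis, log scale) of 5 galectin genes with all 10 arrays and with each array left out in turn (horizontal axis); the dashed line is 0.05. Lgals1, Lgals2 and Lgals3 stay below the line throughout, with 0.0148 as their highest value, whereas Lgals4 and Lgals8 cross it.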

How the data were processed

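Total RNA of 10 organoid samples, 5 KO and 5 WT, was labelled from 100 ng, per the labels' protocols, for 1 array a sample. The values used are the log2 probe set levels that the authors deposited, normalized by RMA; the submitters' processing notes give this and limma. Not given in the sources used here were versions, the build, and whether normalization was joint. The table held 28846 probe sets, 6640 of them controls and 19572 with 1 gene symbol. Where a gene had several probe sets, the brightest on average was used. KO was compared with WT by limma (3.58.1, R 4.3.3) on all probe sets without a replicate block, with Benjamini-Hochberg adjustment over the probe sets with a symbol. Detection calls were not used here, and the number of arrays limits precision.

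The 8 genes, the lists and the motifs were chosen with earlier results of these data known. Besides the 8 genes, the text names Nfkbia, the further galectin genes, the 3 genes closest to each changed galectin and, in each of the 5 pathway lists (not the marker lists), up to 4 highest and 4 lowest changes that passed. Marker lists are given by counts and ranges, and their single genes with values were chosen after these were seen. RefSeq tables (GRCm38.p6) gave names, gene order and promoters; all 8 genes matched by gene identifier. The fit was first tested on simulated data in which 200 of 19572 probe sets were changed. It recovered 30% of changes of 0.5 log2 units, 76% of 1.0, 98% of 2.0 and 100% of 4.0, with 6 false calls among 158. Small changes can thus fail to pass. Fewer probe sets were changed there than were called here, so these shares need not hold for the present data. Python 3.11.15 made the tables (pandas 2.3.3, numpy 2.4.6) and the plots (matplotlib 3.10.9). There were 21 alternatives, 10 of which left out 1 array. The numbers of KO and WT replicates are not said to pair samples.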

Additional observations from a re-analysis of the deposited data

Results flagged for a closer look

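In groups of 5 arrays, a value was singled out when its gap to the nearest other value exceeded 0.71 of the range of its group. Chance alone gives about 1 in 20 such groups, and 108 groups of 54 genes were searched. None of the 8 galectin genes had such a value in KO or in WT.

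Lgalsl was low in KO replicate 1, at 8.81 against 9.45 to 9.66 in the other KO arrays. Mgat4a was low in KO replicate 5, at 8.12 against 9.07 to 9.36. Nfkbia was high in WT replicate 5, at 9.85 against 8.95 to 9.19, and so was B4galt2, at 6.72 against 6.41 to 6.49. Neu3 was high in WT replicate 4, at 9.90 against 8.05 to 8.53. Gmds was low in that array, at 10.79 against 10.90 to 10.94, which is a small step in a tight group. Lama5 was high in WT replicate 1, at 6.72 against 6.23 to 6.30.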

How the results depend on the processing

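Lgals1, Lgals2 and Lgals3 kept their direction and their call under all 21 alternatives, with changes of 1.93 to 2.30, -1.89 to -1.27 and 1.90 to 2.37. The count of galectins that rose was 2 or 3 throughout, and the count that fell was 1 to 2 when single arrays were left out. It was 1 with KO replicate 2 and WT replicate 4 left out together, where Lgals4 had an adjusted p = 0.0532 (limma) and Lgals8 an adjusted p = 0.0295, and 1 when tested by limma's treat with 1.2-fold as the minimum, where Lgals4 had an adjusted p = 0.197. Array weights also made Lgals8 pass (limma, adjusted p = 0.0329). The change of Lgals9, near 0, turned to 0.0462 with array weights and 0.0755 with both arrays left out, and lay between -0.103 and 0.068 with single arrays left out; Grifin lay between -0.0339 and 0.0879.

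Against 1.2-fold, 1772 probe sets rose and 1262 fell over all genes, 5 ligand-building genes and 3 vesicle damage genes rose, and Lgalsl was lost. With single arrays left out, 5 to 8 ligand-building genes rose and 0 to 1 vesicle damage genes fell; 1 fell with cyclic loess, with centring on the 75th percentile and with array weights. The cause of these differences was not tested. With the replicate block, 2 galectins rose and 2 fell, with Lgals4 at an adjusted p = 0.0178 (limma), and over all genes 2739 rose and 2174 fell; deviations of same-numbered arrays correlated at -0.07 to 0.36, and 2 of 5 KO arrays were closest to the WT array of the same number, so the numbers were not taken as pairs. Signal near the negative controls limits Lgals1 and Lgals7.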

Other observations

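Lgals12, which fell by 2.51, is a galectin of fat cells, so markers of fat cells were read after its value had been seen. Adipoq, Plin1, Lep, Fabp4 and Retn were below 7.44, the average 95th percentile of the negative controls, in both groups and did not pass. Of 8 measured markers 0 rose and 1 fell (limma, with 0 higher and 1 lower at an unadjusted p under 0.05). Over all probe sets, 15.0% were higher and 11.7% lower, so a count of 1 is near that share. The gene that fell was Cidec, a lipid droplet protein, which changed by -1.56 (limma, adjusted p = 0.00121) and was below 7.44 in both groups as well. Pparg, the regulator of fat cells that intestinal epithelium expresses too, changed by -0.21 and did not pass.

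Galectin-4 binds sulfatides, sulfated glycolipids of the apical membrane, and 7 genes of their synthesis and breakdown were also read after the data had been seen. Gal3st1, which adds the sulfate, fell by 1.10 (limma, adjusted p = 0.00243), and Galc, which breaks down galactosylceramide, rose by 0.76 (limma, adjusted p = 0.0289). The other 5 did not pass, with Ugt8a, which makes galactosylceramide, at -0.68 (limma, adjusted p = 0.0655). Thus 1 of the 7 rose and 1 fell (limma, with 3 higher and 3 lower at an unadjusted p under 0.05). Over all probe sets, 15.0% were higher and 11.7% lower, so these counts are near that share.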
